A study of Homo sapiens with 24 samples.

Results

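The libraries described here are the 6 of the small cell lung cancer line NCI-H1694 (H1694), out of 24 libraries from 4 cell lines in the series, taken by the rule that the H1694 table alone is read and its columns are joined to the sample titles through the sample descriptions. The arm coded G6 has 3 libraries titled Cont with the genotype WT, and the arm coded pL has 3 libraries titled CRISPR with the genotype HEPACAM2 knockdown. Both arms are the same ATCC line grown in the medium its supplier recommends, and what the codes G6 and pL stand for is not stated in the labels. The study set lines with lowered or raised HEPACAM2 against controls by stranded RNA sequencing, with independent biological replicates, and its title names interactions between cells and matrix. HEPACAM2 mRNA was lower in the libraries labelled Cont, so the arms go by their column codes here, and each difference is G6 minus pL. Should the titles be the wrong way round, each relation to the CRISPR treatment would turn, while every value below would stay as it is. The labels do not say whether an arm is a pool of cells or 1 clone, no protein was measured, and differences that the cells of the arms had before editing cannot be told apart from those that go with HEPACAM2.

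Small cell lung cancer is a neuroendocrine tumour whose cells store peptides in dense-core granules and express neuronal transcription factors such as NEUROD1. HEPACAM2 encodes a membrane protein of the immunoglobulin superfamily, related to the adhesion molecule HEPACAM, and is known from secretory and tuft cells of the gut and from the Golgi and spindle poles of dividing cells. Cells meet the surrounding matrix through integrins and other receptors that bind collagens and laminins, and secreted enzymes such as the lysyl oxidases crosslink that matrix.

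Total reads per library were 19682771 to 31770858 in G6 and 20149892 to 28936269 in pL, and levels are the deposited normalized counts, that is, counts divided by a size factor per library. The first principal component separated the arms and held 44.3% of the variance. The pL library 1 stood apart from the other pL libraries on the second component (19.8%), and reads of mitochondrially encoded genes were 3.61% to 4.97% in G6 and 3.21% to 6.29% in pL. The line carried its label: NEUROD1 was 21630.4, 21696 and 21790.4 in G6, against 20872, 20861 and 21487 in pL, and INSM1, SYP, CHGA, UCHL1, SCG3 and NCAM1 lay between 4030.4 and 12691 normalized counts in every library. The neuroendocrine marker GRP was not among these abundant genes. It had 9.48, 6.01 and 9.70 in G6, against 4.22, 3.52 and 1.22 in pL. EPCAM, KRT18, KRT8 and CDH1 were low, none of them above 143 normalized counts. The matrix gene COL3A1, the haemoglobin gene HBB, the T cell gene CD3E and the fibroblast gene LUM were at 0 in all 6 libraries. Other markers of such cells were present. Mean levels in G6 and pL were 1324 and 1044 for the fibroblast gene COL1A2, 3127 and 3711 for the endothelial gene CDH5, and 217 and 242 for the airway gene KRT5.

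HEPACAM2 (ENSG00000188175, chromosome 7, 93188586 to 93226524, minus strand, GRCh38) had 3433, 3551 and 3688 normalized counts in the G6 libraries, against 10124, 10545 and 10399 in the pL libraries. The arms did not overlap, and HEPACAM2 was 2.91-fold lower in G6 (log2 fold change -1.54, SE 0.04, limma adjusted p = 1.6e-12). The authors' deposited table gives -1.54 on the log2 scale for it, with the same sign. Its neighbours within 1 Mb on either side stayed close to 0: of the protein-coding genes tested there, KRIT1 (0.13), ANKIB1 (-0.06), GATAD1 (0.12), RBM48 (0.01), FAM133B (-0.18), VPS50 (0.11) and BET1 (0.00) were not called, as log2 fold changes. The cyclin-dependent kinase gene CDK6 (0.28, limma adjusted p = 0.022) and the interferon-inducible gene SAMD9 (0.33, limma adjusted p = 0.021) were higher in G6. The log2 fold change of CDK6 was 0.25, 0.22, 0.28 and 0.23 without G6 library 1, G6 library 2, pL library 2 and pL library 3, and its call was lost in each case. Without the same libraries the log2 fold change of SAMD9 was 0.32, 0.28, 0.32 and 0.30, and its call was lost each time. Neither call held in limma without trend or robust settings.

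Genes with a mean of 10 or more normalized counts in either arm, 17780 in number, were tested with limma on log2(normalized count + 1), and a gene is called at a Benjamini-Hochberg adjusted p under 0.05. In G6, 1582 genes were higher (8.9% of those tested) and 1552 were lower (8.73%), 3134 in all (17.6%). Most differences were small: the median absolute log2 fold change was 0.14 over all tested genes and 0.31 over the called ones. At least 2-fold changes were called in 165 genes higher in G6 (0.928%) and 73 lower (0.411%), together 238 (1.34%). In 35% of tested genes the 3 G6 libraries did not overlap the 3 pL libraries. The count of calls was 1945 without G6 library 1, 1835 without G6 library 2 and 1896 without pL library 2, and the count of lower genes was 1020 without G6 library 3. In bulk RNA, fewer cells of a type and less RNA per cell cannot be told apart, and this touches each difference below.

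**Figure D1:**
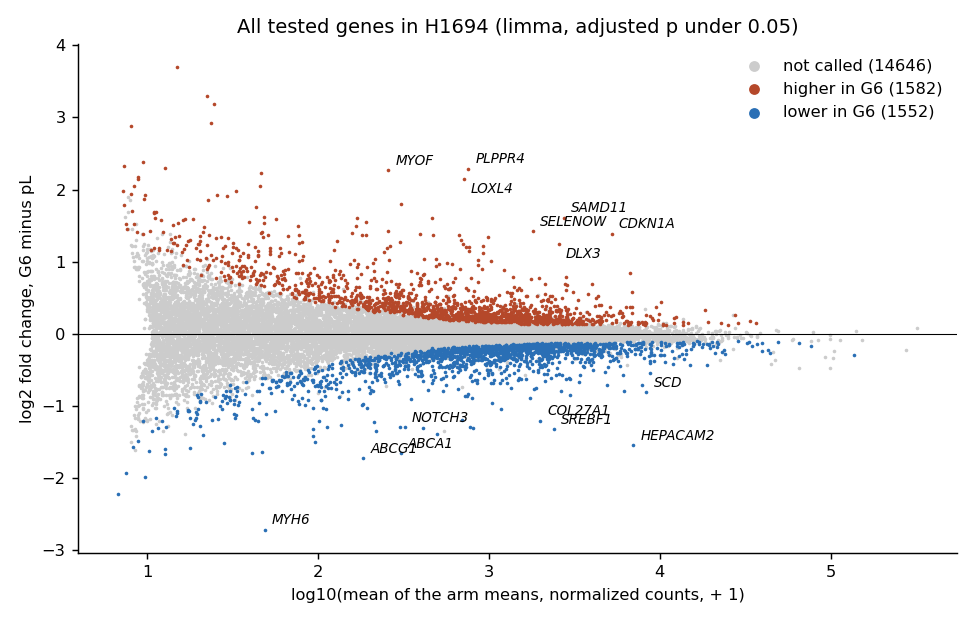
Log2 fold change, G6 minus pL, of each of the 17780 tested genes against the log10 of its mean normalized count, with called genes in colour (1582 higher in G6, 1552 lower). Few abundant genes differ at least 2-fold, and HEPACAM2, CDKN1A, SAMD11, SELENOW, DLX3, SREBF1 and COL27A1 stand out among them.

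The largest rises in G6, among called genes without overlap and with a mean of 50 or more in the higher arm, leaving out antisense genes, pseudogenes and genes known only by an identifier, were those of PLPPR4, MYOF and LOXL4. PLPPR4, a phospholipid phosphatase-related membrane protein of neurons, had 1258, 1246 and 1253 normalized counts in the G6 libraries, against 247, 274 and 246 in the pL libraries. Each G6 library lay far above each pL library (log2 fold change 2.29, SE 0.07, limma adjusted p = 3.6e-12). MYOF, a ferlin that acts in membrane repair and vesicle fusion, had 431, 444 and 397 normalized counts in the G6 libraries, against 83.5, 88.0 and 89.3 in the pL libraries. It was likewise without overlap (log2 fold change 2.27, SE 0.10, limma adjusted p = 6.7e-10). LOXL4, a lysyl oxidase that crosslinks collagen and elastin, had 1144, 1129.9 and 1203 normalized counts in the G6 libraries, against 255, 261 and 267 in the pL libraries (log2 fold change 2.15, SE 0.06, limma adjusted p = 3.8e-12). An antisense gene within LOXL4 was also higher in G6, and since the strand setting of the counting is not given, reads of LOXL4 and of that gene may be mixed. A long noncoding RNA known only by its identifier, ENSG00000256982 on chromosome 16, had a log2 fold change of 2.23, between those of MYOF and LOXL4.

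Receptor genes followed among the rises. LGR6, a receptor for R-spondins, which strengthen Wnt signals, had 459.7, 472 and 483 in G6, against 132, 131 and 141 in pL (log2 fold change 1.80, SE 0.09, limma adjusted p = 1.3e-09). BRS3, an orphan receptor of the bombesin family, had 709.6, 703 and 679 in G6, against 227, 225 and 237 in pL (log2 fold change 1.60, SE 0.07, limma adjusted p = 6.7e-10). NRP1, a co-receptor for semaphorins and VEGF, had 287, 288 and 280.1 in G6, against 103, 102 and 85.6 in pL (log2 fold change 1.55, SE 0.11, limma adjusted p = 1.6e-07). None of these overlapped between the arms. CALCRL, the receptor that binds CGRP and adrenomedullin (1.76), CMKLR1, the chemerin receptor (1.62), BEST3, a bestrophin chloride channel (1.61), CA4, a membrane-bound carbonic anhydrase (1.59), DGKB, a diacylglycerol kinase (1.55), LOX, the founding lysyl oxidase (1.53), and PRDM12, a transcriptional regulator of sensory neurons (1.98), were also among the 15 largest, as log2 fold changes.

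MYH6, the alpha cardiac myosin heavy chain, had the largest fall in G6 by the same rule, at a low level. It had 7.11, 16.5 and 13.3 normalized counts in the G6 libraries, against 71.7, 77.5 and 100.3 in the pL libraries (log2 fold change -2.72, SE 0.28, limma adjusted p = 7.0e-06). Its neighbours on chromosome 14 moved with it: CMTM5, a chemokine-like MARVEL domain gene, had 17.8, 27.0 and 21.8 in G6, against 65.8, 70.4 and 74.6 in pL, and neither gene overlapped between arms. Because MYH6 and its neighbour MYH7 are near copies of each other, the split of reads between them is uncertain. PTHLH, the parathyroid hormone-like hormone, had 11.8, 21.8 and 24.3 in G6, against 77.6, 52.8 and 52.6 in pL (log2 fold change -1.65, SE 0.28, limma adjusted p = 6.6e-04). S100A8, a calcium-binding protein of myeloid cells and stressed epithelia (-1.49), APCDD1, an inhibitor of Wnt signalling (-1.38), SOCS2, a suppressor of cytokine and growth hormone signalling (-1.32), CRISPLD2, a secreted protein (-1.31), BTBD17 (-1.31), TIAM2, an exchange factor for the GTPase Rac (-1.30), and the long noncoding RNA OLMALINC (-1.35) completed the falls outside the lipid and Notch genes described below, as log2 fold changes. SOCS2 overlaps an antisense gene that was also lower in G6.

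**Figure D2:**
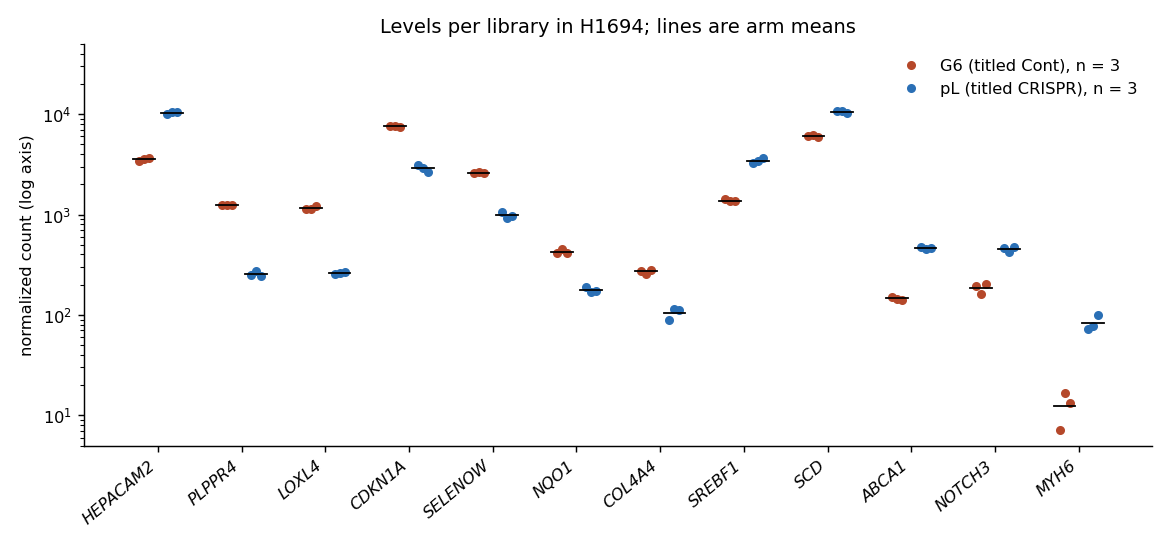
Normalized counts on a log axis for 12 genes in the 3 G6 libraries (left of each pair) and the 3 pL libraries (right), with a line at each arm's mean. In none of the 12 genes do the arms overlap, and the spread within an arm is small beside the difference except at the low level of MYH6.

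Among abundant genes at least 2-fold higher in G6 were a cell cycle inhibitor, a selenoprotein and a homeobox factor. CDKN1A, the cyclin-dependent kinase inhibitor p21, had 7680.4, 7553 and 7388 normalized counts in the G6 libraries, against 3099, 2916 and 2647 in the pL libraries (log2 fold change 1.39, SE 0.05, limma adjusted p = 1.1e-10). SELENOW, a small selenoprotein of the thioredoxin-like fold, had 2579, 2667 and 2612 normalized counts in the G6 libraries, against 1059, 914 and 968 in the pL libraries (log2 fold change 1.42, SE 0.05, limma adjusted p = 1.0e-10). DLX3, a distal-less homeobox factor, had 3663, 3532 and 3591 in G6, against 1607, 1515 and 1412 in pL (log2 fold change 1.25, SE 0.05, limma adjusted p = 1.3e-10). SAMD11, a SAM domain gene, had 4339.6, 3765 and 4283 in G6, against 1342, 1429.8 and 1280.3 in pL (log2 fold change 1.61, SE 0.06, limma adjusted p = 2.2e-10). In each of the 4 genes every G6 library exceeded every pL library by a wide margin.

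Matrix and adhesion genes moved in both directions, as the lists of such genes show. Of 20 collagen genes tested among 40 listed, 4 were higher and 3 were lower in G6 (20% and 15%, against 8.9% and 8.73% of all tested genes), with a median log2 fold change of -0.07 against 0.00 over all tested genes. The lower count was 6 without pL library 1. COL4A3 and COL4A4 encode chains of the type IV collagen of basement membranes and lie head to head on chromosome 2. COL4A4 had 275, 258 and 283 in G6, against 89.4, 115 and 111 in pL (log2 fold change 1.37, SE 0.12, limma adjusted p = 1.2e-06). COL4A3 had 65.2, 68.3 and 78.8 in G6, against 7.59, 19.4 and 28.1 in pL (log2 fold change 2.06, SE 0.39, limma adjusted p = 0.0065). Both were without overlap, although pL library 1 was lowest for each, and the COL4A3 call has an adjusted p of 0.052 in limma without trend or robust settings. COL16A1, a fibril-associated collagen, was also higher (385, 310.1 and 405 in G6, against 127, 167 and 179 in pL), and COL1A2, a chain of type I collagen, was higher by a smaller step (0.34). COL1A1, the partner chain of COL1A2, was lower (-0.70, with its call lost in limma without trend or robust settings), as was COL5A1 (-0.39).

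The start sites of COL4A4 and COL4A3 in GENCODE lie 112 bases apart, which leaves an interval of 111 bases with 61.3% G and C. The RefSeq promoter window of COL4A3 (GRCh38.p14, chr2:227164374-227164673, plus strand), shown because both genes of this pair were higher in G6, holds that interval, chr2:227164454-227164564, in capitals.
COL4A3: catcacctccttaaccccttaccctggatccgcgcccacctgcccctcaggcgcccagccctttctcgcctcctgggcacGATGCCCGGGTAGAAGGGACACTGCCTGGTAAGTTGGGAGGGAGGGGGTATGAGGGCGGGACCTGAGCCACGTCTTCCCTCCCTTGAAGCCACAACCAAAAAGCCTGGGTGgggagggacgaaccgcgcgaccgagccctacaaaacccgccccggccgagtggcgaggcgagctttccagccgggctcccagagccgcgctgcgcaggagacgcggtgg

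COL27A1, a fibrillar collagen expressed in cartilage, was the most abundant collagen that differed at least 2-fold. It had 1167, 1124 and 1298.8 normalized counts in the G6 libraries, against 2089, 3052 and 3269.8 in the pL libraries (log2 fold change -1.20, SE 0.20, limma adjusted p = 0.023). The arms did not overlap, but pL library 1 lay between them. The log2 fold change of COL27A1 was -1.19 without G6 library 1, -1.16 without G6 library 2, -1.26 without G6 library 3, -1.13 without pL library 2 and -1.08 without pL library 3, and the call was lost in each of these 5 cases. ITGA7, an integrin that binds laminin, showed the same order of libraries: 2073, 2031 and 2239 in G6, against 3039.9, 4175 and 4281 in pL (log2 fold change -0.84, SE 0.15, limma adjusted p = 0.025). The log2 fold change of ITGA7 was -0.83, -0.81, -0.88, -0.77 and -0.75 in the same 5 cases, again with its call lost, and its adjusted p was 0.057 in limma with no filter on low levels.

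Matrix-modifying enzymes leaned to higher values in G6. Of 39 proteases, inhibitors and crosslinking enzymes tested among 58 listed, 12 were higher and 3 lower (30.8% and 7.69%, against 8.9% and 8.73% of all tested genes; median 0.05), led by LOXL4 and LOX, with the lysosomal protease CTSL at 47.4, 48.8 and 60.6 in G6, against 21.1, 23.8 and 26.9 in pL (log2 fold change 1.09, SE 0.22, limma adjusted p = 0.0026). MMP2, the gelatinase that cleaves type IV collagen, went the other way, at 1662, 1636 and 1464 in G6, against 2448, 2196 and 2129 in pL (log2 fold change -0.51, SE 0.06, limma adjusted p = 5.3e-05). The higher count of this list was 7 without G6 library 1, G6 library 3 or pL library 2 and 6 without G6 library 2 or pL library 3. Among matrix glycoproteins and proteoglycans, 10 of 50 tested genes were higher and 8 lower (20% and 16%). PRELP, a leucine-rich proteoglycan that anchors basement membranes, had 1349, 1252 and 1277 in G6, against 588, 558 and 526 in pL (log2 fold change 1.21, SE 0.06, limma adjusted p = 1.3e-09). THBS1, thrombospondin 1, had 1642, 1625 and 1513 in G6, against 900.0, 891 and 794 in pL (log2 fold change 0.89, SE 0.06, limma adjusted p = 4.5e-08). The lower count there was 5 without G6 library 2 or pL library 2.

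Basement membrane and junction genes showed a few clear changes. Of 24 laminin and basement membrane genes tested, 6 were higher and 2 lower (25% and 8.33%, against 8.9% and 8.73% of all tested genes). FREM2, a basement membrane protein of epithelia, had 254, 248 and 183 in G6, against 114, 79.2 and 68.5 in pL (log2 fold change 1.40, SE 0.19, limma adjusted p = 4.4e-04), and EGFLAM, which links the matrix to dystroglycan, had 335, 311 and 323 in G6, against 202, 173 and 163 in pL (log2 fold change 0.85, SE 0.10, limma adjusted p = 2.7e-05). The lower count of this list was 1 without G6 library 1, G6 library 3 or pL library 2 and 4 without pL library 1. Among 33 cadherins, protocadherins and junction genes tested, 8 were higher and 5 lower (24.2% and 15.2%). PCDH19, a protocadherin of neurons, had 687, 685 and 603 in G6, against 369, 315 and 282 in pL (log2 fold change 1.03, SE 0.09, limma adjusted p = 3.3e-06), and CDH11, a cadherin typical of mesenchyme, had 314, 269.5 and 274 in G6, against 164, 131 and 125 in pL (log2 fold change 1.03, SE 0.12, limma adjusted p = 2.2e-05). The lower count of that list was 2 without G6 library 1, 3 without G6 library 2 or pL library 1, 1 without G6 library 3 and 0 without pL library 2.

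In the family of HEPACAM2 itself, immunoglobulin-like adhesion molecules, 7 of 28 tested genes among 38 listed were higher and 5 lower, HEPACAM2 included (25% and 17.9%, against 8.9% and 8.73% of all tested genes). CNTN2, a contactin of axons, had 3647, 3902 and 3589.7 in G6, against 6317, 6087 and 5769 in pL (log2 fold change -0.71, SE 0.05, limma adjusted p = 3.8e-08), and CADM1, a homophilic adhesion molecule, had 996, 982 and 1044 in G6, against 749.9, 720.2 and 664 in pL (log2 fold change 0.50, SE 0.06, limma adjusted p = 2.8e-05). Neither overlapped between arms. Of 16 integrins tested, 3 were higher and 2 lower (18.8% and 12.5%), counts that ranged from 1 to 5 and from 0 to 2 when 1 library was left out (1 higher without G6 library 1, G6 library 2 or pL library 2, and 5 without pL library 1, 0 lower without each G6 library or pL library 2, and 1 lower without pL library 3). Of 54 focal adhesion and actin genes tested, 10 were higher and 8 lower (18.5% and 14.8%), with small steps such as VCL, vinculin (0.35), and RHOB, a small GTPase (-0.39). The higher count was 6 without G6 library 2, and the lower count was 5 without G6 library 2 or pL library 2 and 4 without G6 library 3.

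Most of the listed genes that make cholesterol and fatty acids were lower in G6. Of the 34, all tested, 21 were lower, 0 were higher and 13 were not called (61.8% and 0%, against 8.73% and 8.9% of all tested genes), and the median log2 fold change was -0.25. The count of higher genes was also 0 at an unadjusted limma p under 0.05 and in edgeR, DESeq2 and limma-voom. These genes are switched on by the SREBP factors when sterols are scarce. SREBF1, which encodes SREBP1, had 1416, 1354 and 1355 normalized counts in the G6 libraries, against 3247, 3388 and 3671 in the pL libraries (log2 fold change -1.32, SE 0.05, limma adjusted p = 1.0e-10). SCD, the desaturase that makes monounsaturated fatty acids, had 6033, 6173 and 5908 normalized counts in the G6 libraries, against 10844, 10680.5 and 10311 in the pL libraries (log2 fold change -0.81, SE 0.04, limma adjusted p = 8.9e-10). INSIG1, which holds SREBP in the endoplasmic reticulum, had 1179, 1300.3 and 1184 in G6, against 2418, 2198 and 2204 in pL (log2 fold change -0.90, SE 0.05, limma adjusted p = 1.6e-08). Each of these was lower in every G6 library than in any pL library.

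Steps of the mevalonate pathway fell too. The mevalonate enzyme genes HMGCS1 (-0.80), FDFT1 (-0.63), LSS (-0.46), IDI1 (-0.38), SQLE (-0.34), DHCR7 (-0.32) and FDPS (-0.30) were lower, as log2 fold changes. FASN, fatty acid synthase, was 19053 ± 366 in G6 and 22981 ± 323 in pL (SD, n = 3 each). TM7SF2, ACSS2, PMVK, MVK, ACLY, EBP, SC5D, ELOVL6, HSD17B7, CYP51A1 and ACACA were not called, with log2 fold changes of -0.18 to 0.09. With any 1 library left out, 18 to 20 of the 34 genes were lower. The sterol regulatory element, searched as TCAC, any base and CCAC on both strands of RefSeq windows of 250 bases before to 50 after each start (GRCh38.p14), was in 1 of 26 tested genes with a window (3.85%), a lower one, against 1.39% of all 27305 genes with a window. A gene was counted when any of its windows matched.

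The cholesterol exporters were lower as well. ABCA1, which loads cholesterol onto apolipoprotein A-I, had 152, 145 and 141 normalized counts in the G6 libraries, against 473, 449 and 465 in the pL libraries (log2 fold change -1.66, SE 0.09, limma adjusted p = 3.5e-09). ABCG1, which exports cholesterol to high density lipoprotein, had 98.3, 81.1 and 75.2 in G6, against 294, 270.3 and 281 in pL (log2 fold change -1.73, SE 0.12, limma adjusted p = 1.2e-07). Both are targets of the oxysterol receptors LXR, as are SREBF1 and SCD, and this set of LXR genes was put together after the values were seen. APOE (-0.39) and LPCAT3, a phospholipid acyltransferase (-0.23, its call lost in limma without trend or robust settings), were lower, whereas MYLIP (0.09), SMPDL3A (0.11) and the receptor genes NR1H3 (-0.10) and NR1H2 (0.10) were not called.

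**Figure D3:**
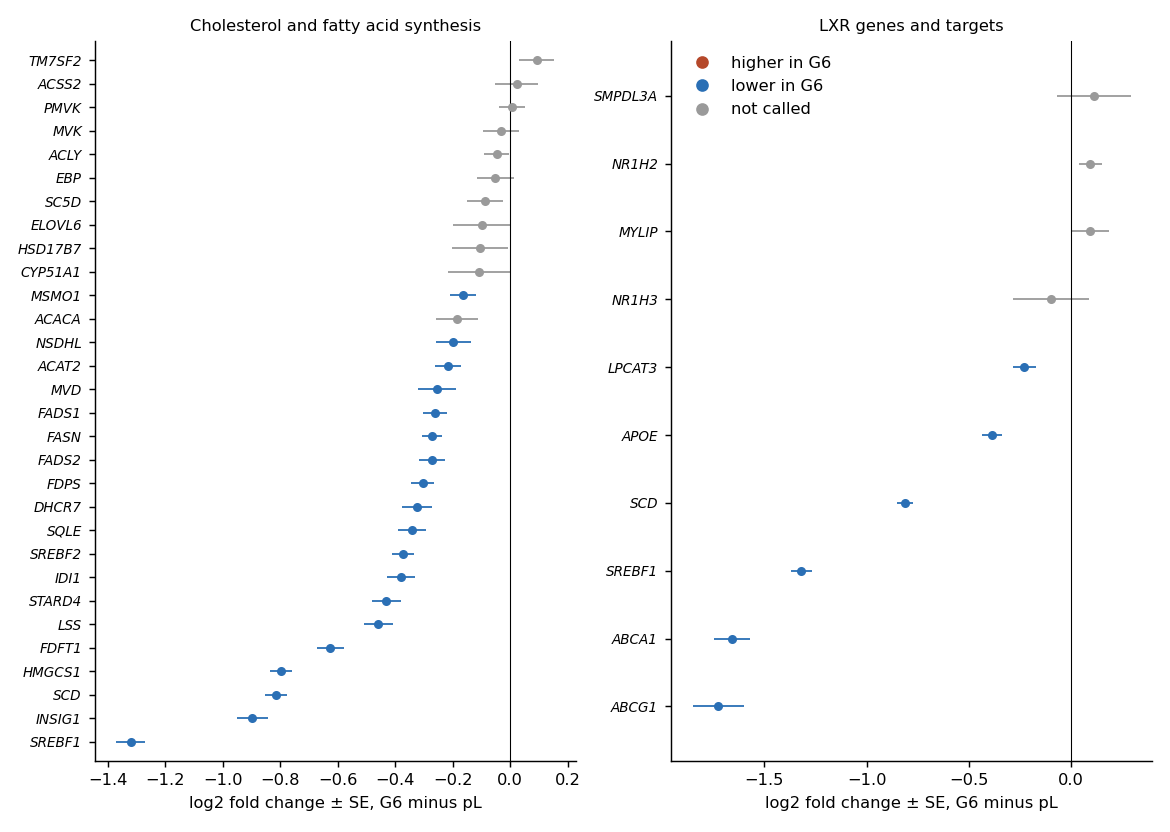
Log2 fold change with SE, G6 minus pL, of 30 of the 34 genes of cholesterol and fatty acid synthesis (left) and of 10 LXR genes and targets (right), from limma on 3 libraries per arm. In the left panel 19 genes are lower in G6 and 0 are higher, and in the right panel ABCA1 and ABCG1 have the lowest values.

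Class I antigen processing showed the opposite lean. Cells show peptides from their own proteins on HLA class I molecules, after cutting by the proteasome, transport by TAP and trimming by ERAP enzymes, and interferon raises these genes. Of 19 tested genes among 21 listed, 13 were higher in G6 and 0 lower (68.4% and 0%, against 8.9% and 8.73% of all tested genes), with a median log2 fold change of 0.35. B2M, the invariant light chain of class I, was 4746 ± 60.6 in G6 and 3634 ± 46.0 in pL (SD, n = 3 each), and its log2 fold change was 0.39. ERAP2, a peptide-trimming peptidase, had 304, 354 and 335 in G6, against 201, 199 and 197 in pL (log2 fold change 0.73, SE 0.09, limma adjusted p = 4.9e-05). TAPBP, tapasin, had 1461, 1427 and 1361 in G6, against 1040.0, 1071 and 1103 in pL (log2 fold change 0.40, SE 0.05, limma adjusted p = 4.8e-05). TAP1, a subunit of the peptide transporter, had 541, 519 and 491 in G6, against 427, 385 and 351 in pL (log2 fold change 0.42, SE 0.08, limma adjusted p = 0.0021). PSMB9, an immunoproteasome subunit, had 175, 165 and 164 in G6, against 132, 113 and 110.1 in pL (log2 fold change 0.51, SE 0.12, limma adjusted p = 0.0087). None of these overlapped between arms. TAP1 lies within the annotated span of PSMB9 on the other strand. Since the strand setting of the counting is not given, reads of TAP1 and PSMB9 may be mixed. HLA-C (0.35) was called and HLA-B (-0.01) was not, and reads of these near copies may be split between them. For HLA-C the log2 fold change was 0.35, 0.34 and 0.35, with its call lost, without G6 library 2, G6 library 3 and pL library 2. The count of higher genes was 9 to 13 with 1 library left out. For this list, the interferon genes and the NRF2 genes below, the count of lower genes was 0 at an unadjusted limma p under 0.05 too, and 0 in edgeR, DESeq2 and limma-voom.

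Of 23 interferon response genes tested among 41 listed, 10 were higher and 0 lower (43.5% and 0%, against 8.9% and 8.73% of all tested genes), with a median of 0.33. The largest steps were in genes of low level: GBP1, a guanylate-binding protein, had 14.2, 12.012 and 13.3 in G6, against 2.53, 0.880 and 3.67 in pL (log2 fold change 2.17, SE 0.48, limma adjusted p = 0.0051), GBP2, of the same family and a neighbour on chromosome 1, had 11.8, 15.015 and 8.49 in G6, against 3.37, 5.28 and 0 in pL (log2 fold change 2.05, SE 0.63, limma adjusted p = 0.035), and IFIT3, an antiviral protein, had 29.6, 32.3 and 32.7 in G6, against 16.0, 15.8 and 13.5 in pL (log2 fold change 1.02, SE 0.26, limma adjusted p = 0.012). All 3 were without overlap. Without G6 library 1, G6 library 2, G6 library 3 and pL library 3 the log2 fold change of GBP2 was 2.03, 1.87, 2.25 and 1.25, with its call lost each time, and the log2 fold change of IFIT3 was 1.001 without G6 library 2, with its call lost there. GBP2 was not called in limma without trend or robust settings, nor IFIT3 in DESeq2. GBP1 and GBP2 were under 10 in every pL library and passed the filter of a mean of 10 through G6 alone. Had they been as low in G6 as in pL, they would not have been tested. Higher genes of greater level included STAT2, a signal transducer of type I interferon (1069, 1006 and 1182 in G6, against 802, 916 and 816 in pL), IRF1, an interferon regulatory factor (528, 491 and 491 in G6, against 416, 397 and 391 in pL), and ISG15, a ubiquitin-like modifier (0.31 as a log2 fold change). IFIT1, IFIT2, OAS1 and RSAD2, also strongly inducible by interferon, were not called, with log2 fold changes of 0.40, 0.11, -0.10 and 0.17. The higher count was 4 without G6 library 2, and the call of STAT2 was lost in limma without trend or robust settings (adjusted p = 0.063, log2 fold change of STAT2 0.36).

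The interferon-stimulated response element was searched as GAAA, any 2 bases and GAAA on both strands in the same RefSeq windows, where adjacent matches may overlap. It occurred in 10 of 15 tested class I genes with a window (66.67%) and in 12 of 17 interferon genes (70.59%), against 4.38% of all 27305 genes with a window. Among interferon genes it was in 5 of 7 that were higher and in 7 of 10 that were not called. Windows of 3 higher class I genes are shown because their matches lie near the start, with the matching letters of either strand in capitals: B2M at chr15:44711267-44711566 (plus strand), TAP1 at chr6:32853655-32853954 (minus strand) and TAPBP at chr6:33314029-33314328 (minus strand).
B2M: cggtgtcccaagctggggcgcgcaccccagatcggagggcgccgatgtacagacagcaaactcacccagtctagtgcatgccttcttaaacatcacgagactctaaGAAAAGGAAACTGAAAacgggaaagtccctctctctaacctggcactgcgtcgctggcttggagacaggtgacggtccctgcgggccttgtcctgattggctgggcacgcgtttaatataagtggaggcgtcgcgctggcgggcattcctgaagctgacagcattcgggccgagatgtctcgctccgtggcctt
TAP1: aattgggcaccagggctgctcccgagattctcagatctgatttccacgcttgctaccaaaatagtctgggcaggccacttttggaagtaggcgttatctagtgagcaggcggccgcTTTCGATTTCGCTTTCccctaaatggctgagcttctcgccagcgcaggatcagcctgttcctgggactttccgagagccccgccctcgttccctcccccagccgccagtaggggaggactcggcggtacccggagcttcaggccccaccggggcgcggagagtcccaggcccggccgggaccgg
TAPBP: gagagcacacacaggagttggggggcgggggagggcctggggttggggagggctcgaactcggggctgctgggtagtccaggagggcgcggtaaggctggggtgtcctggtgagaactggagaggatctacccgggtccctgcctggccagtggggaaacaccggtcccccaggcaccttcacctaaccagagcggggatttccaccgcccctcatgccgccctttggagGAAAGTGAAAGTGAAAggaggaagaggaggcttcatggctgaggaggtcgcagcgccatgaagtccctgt

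Genes of oxidant defence also leaned upward. NRF2 switches on detoxifying and glutathione genes when cells meet oxidants or electrophiles. Of 28 such genes tested among 33 listed, 12 were higher in G6 and 0 lower (42.9% and 0%, against 8.9% and 8.73% of all tested genes), with a median of 0.13. NQO1, a quinone reductase, had 412, 449.7 and 415 normalized counts in the G6 libraries, against 188, 169 and 171 in the pL libraries (log2 fold change 1.27, SE 0.09, limma adjusted p = 9.8e-08). AKR1B10, an aldo-keto reductase, had 172, 188 and 189 in G6, against 79.3, 77.5 and 67.3 in pL (log2 fold change 1.28, SE 0.13, limma adjusted p = 5.6e-06). OSGIN1, an oxidative stress-induced growth inhibitor, had 90.04, 66.1 and 91.0 in G6, against 30.4, 46.7 and 30.6 in pL (log2 fold change 1.19, SE 0.21, limma adjusted p = 0.0011). None of these overlapped between arms, whereas GCLM and GCLC, the glutathione synthesis genes, were not called (0.11 and 0.13). TXNRD1, thioredoxin reductase, was higher (0.37), and NFE2L2, which encodes NRF2, was not called (0.10). The antioxidant response element, searched as TGACNNNGC on both strands, was in 6 of 19 tested genes with a window (31.58%), against 16.06% of all genes with a window, in 2 of 5 higher genes and in 4 of 14 that were not called. Of 21 heat shock and chaperone genes tested, 10 were higher and 1 lower (47.6% and 4.76%), led by DNAJB1, a cochaperone of HSP70 (2527, 2595 and 2609.8 in G6, against 2019, 1754 and 1763 in pL), and that higher count was 4 without G6 library 1 or G6 library 2 and 5 without G6 library 3 or pL library 2, while the lower count was 0 without G6 library 1, G6 library 2, G6 library 3 or pL library 2.

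**Figure D4:**
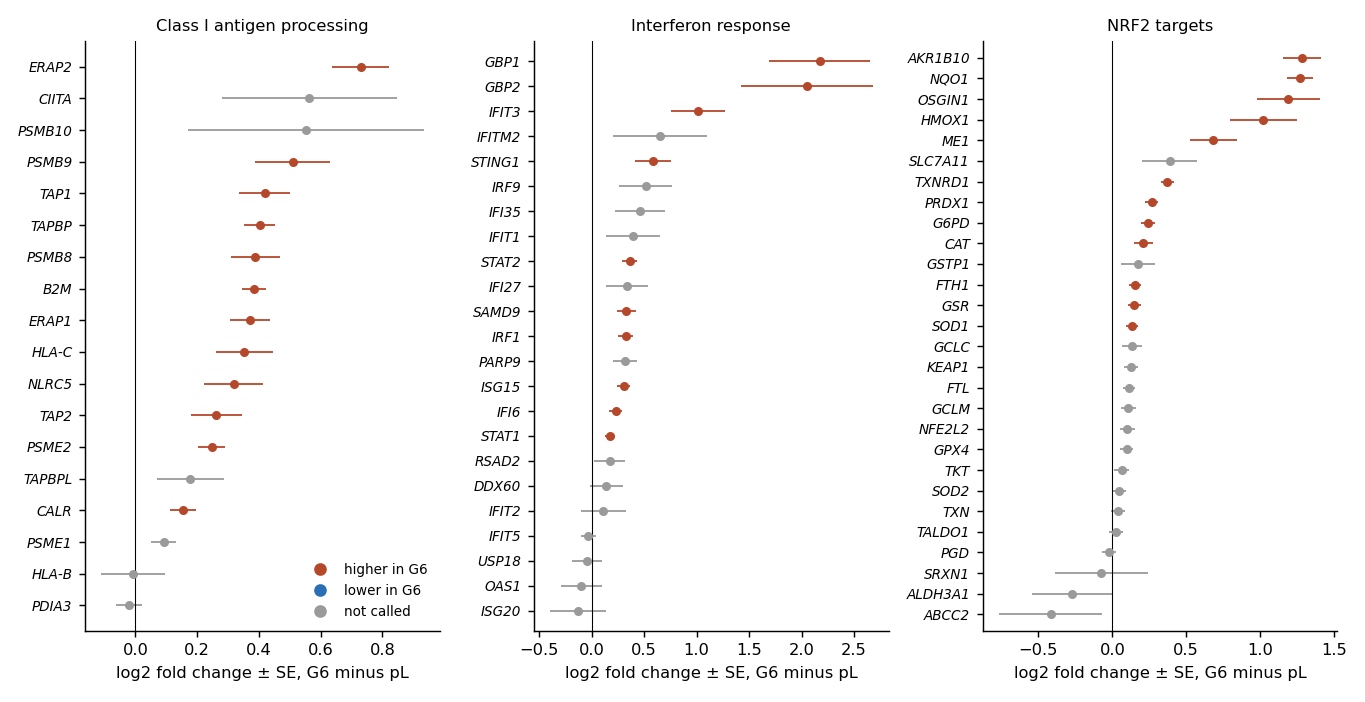
Log2 fold change with SE, G6 minus pL, of tested genes of class I antigen processing (12 of 18 shown are higher in G6), the interferon response (10 of 23) and NRF2 targets (12 of 28), from limma on 3 libraries per arm. No gene shown is called lower in G6, and most called steps are under 1 on the log2 scale.

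The neuroendocrine programme was present in both arms, with changes in single genes. Of 46 granule, synaptic and neuronal markers tested, 11 were higher and 7 lower in G6 (23.9% and 15.2%, against 8.9% and 8.73% of all tested genes). The median log2 fold change was 0.02, and CHGB, SCGN and SCG2, given next, were all on the higher side. CHGB, chromogranin B of the dense-core granule, had 8051, 8232 and 8272 in G6, against 5684, 5375 and 5391 in pL (log2 fold change 0.58, SE 0.04, limma adjusted p = 5.5e-08), and SCGN, a calcium-binding protein of endocrine cells, had 175, 169 and 169 in G6, against 90.3, 95.1 and 114 in pL (log2 fold change 0.78, SE 0.13, limma adjusted p = 5.5e-04). SCG2, secretogranin II, was 4536 ± 53.7 in G6 and 3090.1 ± 117 in pL (SD, n = 3 each). Of 31 lineage transcription factors tested, 1 was higher and 7 were lower (3.23% and 22.6%). HES6, a factor of neuroendocrine differentiation, had 3231, 3036 and 3242 in G6, against 4142, 4021 and 4248 in pL (log2 fold change -0.38, SE 0.04, limma adjusted p = 1.4e-05). MYC, the single higher one, had 88.9, 96.8 and 106 in G6, against 68.3, 60.7 and 48.9 in pL (log2 fold change 0.71, SE 0.17, limma adjusted p = 0.0084), and the higher count was 4 without G6 library 3 and 5 without pL library 1.

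Markers of non-neuroendocrine and mesenchymal states leaned upward in G6. The summed level of those listed was 13848 to 14324 in G6 and 11568 to 12762 in pL. The single genes given here are of low level and, except YAP1, higher in G6. Of 21 tested among 35 listed, 9 were higher and 2 lower (42.9% and 9.52%, against 8.9% and 8.73% of all tested genes), with a median of 0.29. KRT19, a keratin of simple epithelia, had 113, 96.8 and 76.4 in G6, against 33.7, 34.3 and 40.4 in pL (log2 fold change 1.36, SE 0.19, limma adjusted p = 1.3e-04), and SNAI2, a factor of epithelial to mesenchymal transition, had 198, 204 and 193 in G6, against 143, 115 and 133 in pL (log2 fold change 0.61, SE 0.12, limma adjusted p = 0.002). MYOF belongs here as well. YAP1, the transcriptional coactivator that marks a non-neuroendocrine subset of small cell lung cancer, was at 0 in all 6 libraries. The higher count was 5 without G6 library 1, G6 library 2 or pL library 3, and the lower count was 1 without G6 library 1, G6 library 2, G6 library 3, pL library 1 or pL library 2.

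More Notch genes were lower than higher in G6. Notch receptors are cleaved on binding their ligands and switch on HES and HEY repressors, and in small cell lung cancer Notch activity is known to oppose the neuroendocrine state. NOTCH3 had 192, 159.9 and 203 normalized counts in the G6 libraries, against 466, 423 and 474 in the pL libraries (log2 fold change -1.30, SE 0.10, limma adjusted p = 2.4e-07). NOTCH1 had 1699, 1593 and 1637 in G6, against 2658, 2501 and 2608 in pL (log2 fold change -0.66, SE 0.05, limma adjusted p = 8.5e-08). HES1, a target repressor, had 71.1, 95.3 and 66.7 in G6, against 124, 134 and 128 in pL (log2 fold change -0.74, SE 0.16, limma adjusted p = 0.0037). All 3 were without overlap. DLL3, an inhibitory ligand, was 498 ± 17.2 in G6 and 712 ± 17.2 in pL (SD, n = 3 each) and was called lower (-0.51). HEY2, a target repressor, went against the rest at 774, 721 and 763 in G6, against 404, 383 and 356 in pL (log2 fold change 0.98, SE 0.07, limma adjusted p = 1.1e-07). In all, 8 of 30 tested Notch genes were lower and 4 were higher (26.7% and 13.3%, against 8.73% and 8.9% of all tested genes; median -0.06), and the higher count was 2 without G6 library 2, G6 library 3 or pL library 2.

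Several feedback genes of the MAP kinase pathway were lower. ETS factors of the PEA3 group and some dual specificity phosphatases, such as DUSP4, are induced by ERK activity and are often read as its output. ETV4, a PEA3 factor, had 797, 786 and 730.1 normalized counts in the G6 libraries, against 1701, 1534 and 1526 in the pL libraries (log2 fold change -1.04, SE 0.06, limma adjusted p = 6.7e-09). DUSP8 had 155, 144 and 132 in G6, against 255, 254 and 253 in pL (log2 fold change -0.82, SE 0.10, limma adjusted p = 5.2e-05), and DUSP4 had 732, 776 and 712 in G6, against 1120.2, 1144 and 1138 in pL (log2 fold change -0.62, SE 0.05, limma adjusted p = 1.2e-06). No arm overlapped the other in these genes. Of 34 tested genes, 11 were lower and 4 higher (32.4% and 11.8%, against 8.73% and 8.9% of all tested genes, median -0.09). MYC, which is also on this list of feedback and immediate early genes, was 1 of the 4 higher (0.71 as a log2 fold change). The higher count was 2 without G6 library 1. Among receptor tyrosine kinases and growth factors, 8 of 41 tested genes were higher and 7 lower (19.5% and 17.1%), with NTRK3, the receptor for neurotrophin 3, at 59.2, 70.6 and 63.1 in G6, against 144, 162 and 171 in pL, and ERBB4, a neuregulin receptor, at 122, 124 and 124 in G6, against 271, 240.4 and 219 in pL.

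BMP, Wnt and guidance genes changed in both directions. Of 34 TGF-beta and BMP genes tested, 10 were higher and 7 lower (29.4% and 20.6%, against 8.9% and 8.73% of all tested genes). SMAD6, an inhibitory SMAD, had 623, 687 and 719 in G6, against 266, 261 and 257 in pL (log2 fold change 1.37, SE 0.08, limma adjusted p = 6.5e-09), ID3, a BMP target, had 5125, 4883 and 4904 in G6, against 3570.5, 3509 and 3458 in pL (log2 fold change 0.50, SE 0.04, limma adjusted p = 3.6e-07), and the ligand BMP4 had 129, 162 and 165 in G6, against 251, 247 and 296 in pL (log2 fold change -0.80, SE 0.12, limma adjusted p = 2.5e-04). None overlapped between arms. Of 36 Wnt genes tested, 5 were higher and 7 lower (13.9% and 19.4%), with the receptor gene FZD5 at 0.73 and the inhibitor APCDD1 as above. Of 51 guidance genes tested, 13 were higher and 12 lower (25.5% and 23.5%), with NRP1 highest and ROBO2, a Slit receptor, at 73.5, 101 and 64.3 in G6, against 182, 182 and 204 in pL (log2 fold change -1.27, SE 0.16, limma adjusted p = 4.1e-05). The lower count of guidance genes was 7 without pL library 2.

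Ion channel and neurotransmitter receptor genes were lower more often than higher. Of 49 tested genes, 16 were lower and 6 higher (32.7% and 12.2%, against 8.73% and 8.9% of all tested genes), with a median of -0.07. CACNA1E, an R-type calcium channel, had 66.3, 54.8 and 58.2 in G6, against 108, 160.2 and 154 in pL (log2 fold change -1.20, SE 0.17, limma adjusted p = 1.4e-04), and KCNJ6, a G protein-gated potassium channel, had 432, 431 and 399 in G6, against 752, 681 and 642 in pL (log2 fold change -0.71, SE 0.07, limma adjusted p = 6.1e-06). KCNH6, a potassium channel of the ERG family, was higher, at 1339, 1203 and 1231 in G6, against 550.0, 603 and 575 in pL (log2 fold change 1.12, SE 0.06, limma adjusted p = 4.2e-09), as was KCNA1, a voltage-gated potassium channel (0.64). None of these 4 overlapped between arms.

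Cell cycle and cell death genes changed in both directions. Of 24 p53 targets tested, 5 were higher, CDKN1A included, and 3 lower (20.8% and 12.5%, against 8.9% and 8.73% of all tested genes). CDKN1A is also counted in the G1 and RB list below. TP53INP1, a p53-inducible stress protein (0.25), and POLH, a translesion polymerase (0.31), were higher by small steps, and AEN (-0.29) was lower. The higher count of p53 targets was 3 without G6 library 1, G6 library 2, G6 library 3 or pL library 2. Their lower count was 1 without G6 library 1 or pL library 2. Of 25 genes of the BCL2 family and cell death tested, 4 were higher and 2 lower (16% and 8%). BMF, a BH3-only activator of cell death, had 250.0, 281 and 249 in G6, against 101, 101 and 96.6 in pL (log2 fold change 1.37, SE 0.11, limma adjusted p = 4.3e-07), and BIK, another BH3-only gene, had 37.9, 53.3 and 37.6 in G6, against 86.9, 55.5 and 72.1 in pL (log2 fold change -0.72, SE 0.21, limma adjusted p = 0.029). The call of BIK was lost in DESeq2, in limma-voom and in limma without trend or robust settings. With G6 library 1, G6 library 3, pL library 1 and pL library 3 left out the log2 fold change of BIK was -0.64, -0.63, -0.57 and -0.70, without a call. The higher count of that list was 2 without G6 library 2, and the lower count was 0 without G6 library 1, G6 library 3 or pL library 1 and 1 without G6 library 2, pL library 2 or pL library 3. Of 22 G1 and RB pathway genes tested, 9 were higher and 2 lower (40.9% and 9.09%), with CCNE1, cyclin E1 (0.36), higher and E2F1 (-0.35) lower, and the higher count was 5 without G6 library 1 and 4 without pL library 2 while the lower count was 1 without G6 library 1, G6 library 2, G6 library 3, pL library 1 or pL library 2. Of 45 replication genes tested, 8 were lower, such as MCM7, a subunit of the replicative helicase (-0.28), and 1 was higher (17.8% and 2.22%). That lower count was 3 without G6 library 1, G6 library 2 or pL library 2 and 4 without G6 library 3, and the higher count was 0 without G6 library 2, G6 library 3, pL library 2 or pL library 3 and 3 without pL library 1. Of 46 mitosis genes tested, 5 were lower and 1 higher (10.9% and 2.17%), the lower share being near that of all tested genes. The lower count was 2 without G6 library 1 or G6 library 2 and 3 without G6 library 3 or pL library 2, and the higher count was 0 without G6 library 1, G6 library 2, G6 library 3 or pL library 3 and 2 without pL library 1.

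Lists of stress and composition gave mixed counts. Of 40 unfolded protein and integrated stress response genes tested, 5 were higher and 7 lower (12.5% and 17.5%, against 8.9% and 8.73% of all tested genes), with ATF4, the factor that drives the integrated response, at 7542, 7566 and 7326 in G6, against 10237, 9869.6 and 9737 in pL. The higher count was 3 without G6 library 2, pL library 2 or pL library 3 and 8 without pL library 1, and the lower count was 4 without pL library 2. Of 37 hypoxia and glycolysis genes tested, 4 were higher and 7 lower (10.8% and 18.9%), with EGLN3, an oxygen-sensing prolyl hydroxylase, at 853, 769.5 and 779 in G6, against 416, 402 and 402 in pL and NDRG1 at -0.50 as a log2 fold change. The higher count there was 2 without G6 library 1, G6 library 2, G6 library 3 or pL library 2 and 8 without pL library 1, and the lower count was 4 without G6 library 2, 3 without G6 library 3 or pL library 2 and 11 without pL library 1. The 13 mitochondrially encoded genes had a median of -0.32 and 0 limma calls, with 0 at an unadjusted p under 0.05 and 0 in edgeR, DESeq2 and limma-voom. Of 53 cytosolic ribosomal protein genes, 1 was higher and 5 were lower (1.89% and 9.43%). The higher count was 0 without G6 library 2 and 8 without pL library 1, and the lower count was 1 without G6 library 1 or G6 library 3, 3 without G6 library 2 and 13 without pL library 1. Counts were small for YAP and TAZ targets (3 higher and 2 lower of 16 tested, 18.8% and 12.5%), NF-kB targets and cytokines (2 and 1 of 12, 16.7% and 8.33%) and replication-dependent histones (2 and 2 of 11, 18.2% and 18.2%). Of the markers of other cells, 6 of 11 fibroblast genes passed the level filter, and their summed level was 1608 to 1720.2 in G6 and 1281 to 1514 in pL. The blood and endothelial markers passed in 2 of 12 and the airway markers in 3 of 13, and CDH5, an endothelial cadherin, was 3127 ± 33.1 in G6 and 3711 ± 65.1 in pL (SD, n = 3 each) in these cancer cells. Of the tuft markers, POU2F3 was at most 4.74 normalized counts in any library, ASCL2 was at 0, and 5 were tested. HEPACAM2 itself, SOX9 (-0.53) and DCLK1 (-0.36) were lower in G6, AVIL, an actin-binding protein, was higher at 36.7, 47.3 and 53.4 in G6, against 24.5, 21.1 and 33.0 in pL (log2 fold change 0.79, SE 0.24, limma adjusted p = 0.034), and GFI1B (0.15) was not called. Without G6 library 2, G6 library 3 and pL library 2 the log2 fold change of AVIL was 0.76, 0.67 and 0.65, with its call lost there, in DESeq2 and in limma without trend or robust settings.

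**Figure D5:**
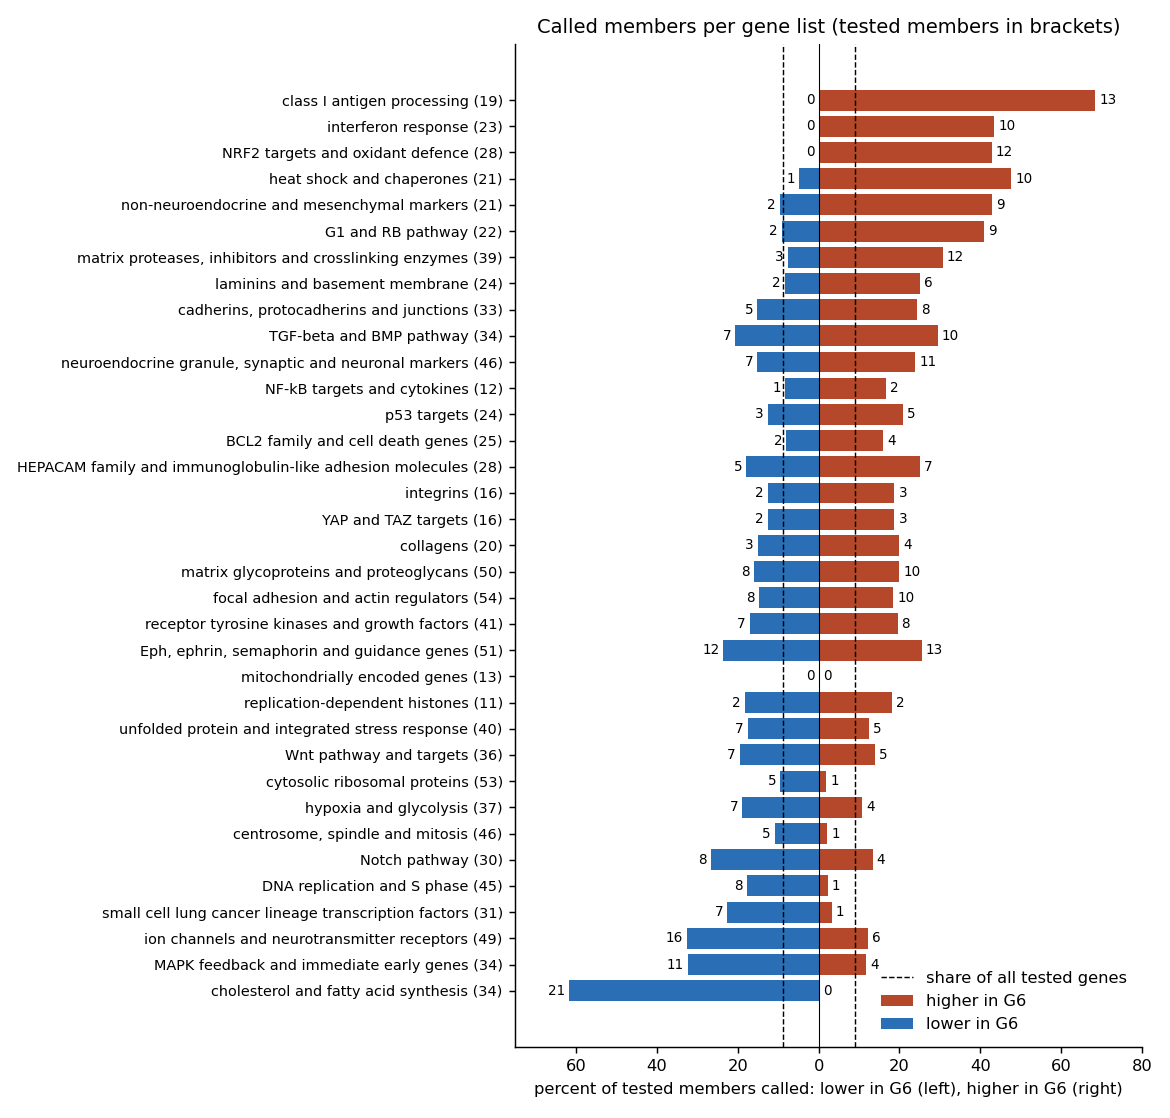
Percent of the tested members of each gene list called lower (left) or higher (right) in G6, for lists with at least 10 tested members, with the number of genes at each bar and dashed lines at the share of all tested genes (8.73% lower, 8.9% higher). Class I antigen processing (13 higher, 0 lower) and cholesterol and fatty acid synthesis (0 higher, 21 lower) form the ends of the order.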

How the data were processed

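Per the submitters' processing notes, reads were handled with CASAVA, FastQC and Trim Galore, aligned with STAR to hg38 and analysed with DESeq2. Their versions, the counting tool and its gene models were not stated in the sources used here. Each library's deposited column holds a signal, whole counts divided by the authors' size factors: dividing by the smallest step gave whole reads for 100% of values within 0.01. Per the file headers, the authors' deposited table also holds a mean signal, a log2 fold change with its SE, a Wald score and raw and adjusted p-values, used here only where the text names that table.

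The log2(normalized count + 1) values of the 6 H1694 libraries were fitted with limma 3.58.1 (trend, robust) in R 4.3.3 over all 17780 of 60668 genes with a mean of 10 or more in either arm, with Benjamini-Hochberg adjustment. Folds are on that scale, which understates the change of low genes. Alternatives were TMM scaling, other filters and a pseudocount of 5, a replicate block, limma without trend or robust settings, each library left out, and edgeR 4.0.16, DESeq2 1.42.0 and limma-voom on recovered reads. The main limma fit, edgeR, DESeq2 and limma-voom were tried on simulated data with 200 changed genes, and the other alternatives were not.

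Gene names and positions came from GENCODE 29 and a table of names, matched for 96.5% of identifiers, and promoter sequences from RefSeq (GRCh38.p14). Genes were named by rule: HEPACAM2, the 15 largest rises and falls among called genes without overlap and with a mean of 50 or more in the higher arm, leaving out antisense genes, pseudogenes, Y-linked genes and genes known only by an identifier, the 8 most abundant 2-fold changes, up to 4 called members of each of 39 lists and genes within 1 Mb of HEPACAM2. Other genes were named after their values were seen, and a few list members, counted in their lists, are not reported here. The libraries, the lists and the rule were chosen with earlier results of these data known. Lists are described by counts and shares of their tested members, without a set test. The p-values measure the spread among these 6 libraries.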

Additional observations from a re-analysis of the deposited data

How the results depend on the processing

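HEPACAM2 was lower in G6, past the threshold, under every alternative run, with log2 fold changes of -1.57 to -1.52 when 1 library was left out. Against 3134 called genes (1582 higher, 1552 lower), 238 (165 and 73) had an absolute log2 fold change of 1 or more, and limma without trend or robust settings called 1520 (813 and 707). The cause of that lower count was not tested. Leaving out 1 library gave 1835 to 4510 calls (900 to 2257 higher, 918 to 2253 lower), the most without pL library 1, which stands apart from the other pL libraries. TMM scaling called 1456 and 1788 genes and shifted the median log2 fold change by -0.012, and edgeR called 1386 and 1692, limma-voom 1383 and 1678, and DESeq2 1158 and 1168. The authors' deposited table gives 1087 higher and 1149 lower genes, of which 2179 were also called here in the same direction and 0 in the opposite one.

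With the replicate number as a block, 1825 genes were higher and 1871 lower. Deviations of same-numbered libraries correlated at 0.0805, -0.174 and 0.329, so the numbers were not taken as pairs. Of 194 called genes looked at one by one, 139 kept the call in every alternative, and 153 did when limma without trend or robust settings was left aside. Signs turned in 8 genes near 0 that were not called. The log2 fold change of RBM48 was -0.0058 with TMM scaling, -0.0067 in edgeR and -0.0076 in limma-voom, and that of BET1 was -0.012 with TMM scaling. With 1 library left out, log2 fold changes ranged from -0.059 to 0.098 for BET1, from -0.0082 to 0.018 for RBM48, from -0.022 to 0.34 for GFI1B, from -0.0695 to 0.054 for HLA-B, from -0.059 to 0.25 for SMPDL3A, from -0.21 to 0.025 for NR1H3, from -0.065 to 0.33 for IFIT2 and from -0.29 to 0.014 for OAS1. Of list counts of 5 or more, those below moved by over 1.5 times in alternatives that kept all libraries. In DESeq2 the counts higher in G6 were 6 for interferon, 6 for heat shock, 7 for matrix enzymes, 6 for focal adhesion, 5 for non-neuroendocrine and 3 for p53 genes, and 3 cadherin and junction genes were lower. In edgeR 6 heat shock genes were higher. Of the ribosomal protein genes, 11 were lower with TMM scaling, with no filter or with the replicate block, and 9 in limma-voom. Limma without trend or robust settings gave higher counts of 0 for the unfolded protein response, 2 for Wnt, 3 for heat shock, 3 for p53, 3 for laminins, 4 for interferon, 5 for G1, 6 for matrix enzymes and 7 for NRF2. Its lower counts were 0 for cadherins and junctions, 0 for ribosomal proteins, 1 for hypoxia, 1 for mitosis, 2 for replication, 3 for the HEPACAM family, 3 for focal adhesion, 3 for neuroendocrine markers, 3 for Wnt, 4 for BMP, 4 for the unfolded protein response, 7 for guidance and 8 for ion channels. The 3 higher integrins fell to 0 there. At low levels only large differences were called.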

Other observations

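Some genes changed at least 2-fold lay beside another that changed the same way, a pattern looked for after the values were seen. Of 233 such genes with a position, 40 formed 26 pairs within 100000 bases of each other, and in all 26 pairs the members moved in the same direction, 19 of them without overlapping. These genes were 17.2% of the 233, and the pairs came from 18 places, with 7 pairs at the CBFA2T3 locus and 3 at the MYH6 locus. An antisense gene and an intronic gene lie within CBFA2T3, and reads of these and of CBFA2T3 may be mixed. Their pair with each other and their pairs with PABPN1L still count as not overlapping, so the pairs at that place are not independent. GBP1 and GBP2, which passed the level filter through G6 alone, also form a pair. Over all tested genes with a position, 94.8% had another tested gene within the same distance, and 52.4% of such pairs had log2 fold changes of the same sign. Most tested genes were not called, so neither share is a matched background for the pairs of 2-fold genes. The homeobox genes DLX3 and DLX4 on chromosome 17 were both higher in G6, with DLX4 at 1134, 1149 and 1179 in G6, against 539, 554 and 608 in pL (log2 fold change 1.03, SE 0.06, limma adjusted p = 1.1e-08). The keratin genes KRT15 (1.37) and KRT19 (1.36) were higher, and KIF19 (-1.23) and BTBD17 (-1.31), whose ends lie 596 bases apart, were lower, as log2 fold changes. On chromosome 1, PALMD had 1099, 985 and 988 in G6, against 462, 461 and 407 in pL (log2 fold change 1.21, SE 0.07, limma adjusted p = 9.5e-09) and FRRS1 had 77.0, 101 and 66.7 in G6, against 43.0, 42.3 and 26.9 in pL, in the region that also holds PLPPR4. On chromosome 16, CBFA2T3, a transcriptional corepressor, had 1048, 1053 and 1034 in G6, against 472, 477 and 462 in pL (log2 fold change 1.15, SE 0.06, limma adjusted p = 1.3e-09), beside PABPN1L. MYH7, which may share reads with its near copy MYH6, was lower too (-1.59). Its mean was 5.97 in G6 and 17.3 in pL, so it passed the level filter through pL alone. The log2 fold change of MYH7 was -1.55, -1.14, -1.65 and -1.55 without G6 library 1, G6 library 2, pL library 2 and pL library 3, with its call lost in each case and in limma without trend or robust settings.

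Of 802 tested genes on chromosome 6, 103 (12.84%) were higher in G6 and 45 (5.611%) were lower, against 8.9% and 8.73% over all chromosomes. On the other chromosomes the shares ran from 5% to 11.56% higher and from 5.196% to 11.34% lower. The median log2 fold change was small, 0.02 on chromosome 6 and 0.04 on chromosome 14. The calls were uneven along chromosome 6. From 30 to 40 Mb, 25 of 179 tested genes were higher and 9 lower, and from 160 to 170 Mb, 0 of 26 were higher and 2 lower. CDKN1A, TAP1, TAPBP, PSMB9, HEY2 and SCGN, which were higher, lie on chromosome 6, as does TIAM2, which was lower (-1.30).

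Of the 6 DLX homeobox genes, a group assembled after DLX3 was seen, 4 were higher and 1 was lower (66.7% and 16.7%, against 8.9% and 8.73% of all tested genes). Beside the neighbours DLX3 and DLX4 the higher ones were DLX5, at 114, 110.4 and 108 in G6, against 42.2, 34.3 and 51.4 in pL (log2 fold change 1.37, SE 0.18, limma adjusted p = 5.9e-05), and DLX2 (0.54, its call lost without G6 library 1 and in limma without trend or robust settings). DLX1 (-0.24, its call lost without G6 library 2) was lower and DLX6 (0.15) was not called. Of 25 selenoproteins, a group also assembled after SELENOW was seen, 20 were tested, 4 were higher and 1 was lower in G6 (20% and 5%, against 8.9% and 8.73% of all tested genes). The higher ones beside SELENOW were SELENOT (0.32), GPX3 (0.65) and TXNRD1 (0.37), the lower one was SEPHS2 (-0.28), and GPX4 (0.10) was among the 15 not called, as log2 fold changes.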
